A study of Mus musculus with 18 samples.

Results

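Cadherins are transmembrane proteins that bind calcium and hold neighbouring cells together. In the classical members the extracellular repeats pair with cadherins on the next cell, while the cytoplasmic tail binds β-catenin and p120-catenin and, through α-catenin, the actin cytoskeleton. During neural crest development the set of cadherins on the cell surface is exchanged as cells leave the neural tube, migrate and settle as mesenchyme, and bone-forming cells are known for N-cadherin (Cdh2) and cadherin-11 (Cdh11). The 10 genes described here are Cdh1, Cdh2, Cdh3 and Cdh4 of the type I classical cadherins, Cdh5, Cdh6, Cdh10 and Cdh11 of the type II cadherins, Cdh13, which is held by a lipid anchor and has no cytoplasmic tail, and the atypical Cdh26. They were found by their symbols among the 55335 genes of the count tables, and Cdh26 was picked by its rise with FGF2, so its values are a description without a test in every comparison. At least 1 read was counted for 9 of the 10 cadherins and for 26228 genes in all.

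RNA was sequenced in bulk from O9-1 cells, a mouse neural crest cell line of wild-type genotype that can be turned into osteoblasts in culture. All cells were kept in osteoblast differentiation medium and collected at d2.5 or d5. At each day there were 3 libraries of cells given control siRNA and vehicle (Ctrl+vehicle), 3 of cells given control siRNA and FGF2 (Ctrl+FGF2), and 3 of cells given siRNA against Yap and Taz together with FGF2 (Y/T dKD+FGF2), 18 in all. FGF2 is a ligand of the fibroblast growth factor receptors, and Yap and Taz (genes Yap1 and Wwtr1) are transcriptional co-activators of the Hippo pathway. There was no knockdown without FGF2, and only 1 line was used. The labels name the day as the batch, so day and batch cannot be told apart.

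Between 10377151 and 14698525 reads were assigned to genes in each library. Levels are given in CPM, the counts of a gene scaled to the size of its library, after TMM scaling over the 18 libraries, and levels of different genes are compared only per kilobase of exon. At d2.5 the level of Yap1 was 129 ± 2.8 CPM (SD, n = 3) with control siRNA and FGF2 and 66.7 ± 2.45 CPM with knockdown and FGF2, and it was at 153 ± 5.96 against 70.5 ± 3.4 CPM at d5. Wwtr1 was at 222 ± 2.96 against 136 ± 5.97 CPM at d2.5 and at 215 ± 2.87 against 124 ± 3.24 CPM at d5, so both targets of the siRNA were partly reduced. All 10 neural crest and mesenchyme markers and all 8 osteoblast markers looked up had at least 1 read in each group. Bglap and Alpl were near 0 with FGF2 at d2.5. Bglap had 4 reads in d2.5 Ctrl+FGF2 and 1 in d2.5 Y/T dKD+FGF2, and Alpl had 6 and 4. The glial and early neural crest genes Sox10 and Foxd3 were at 0 counts in every group.

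The cadherin genes lie on 4 mouse chromosomes of the GRCm38 build, and 5 of them share chromosome 8. Cdh5 is at chr8:104101625-104144511, Cdh3 at chr8:106510891-106557297 and its neighbour Cdh1 at chr8:106603351-106670246, all on the plus strand. Cdh11 lies at chr8:102632095-102785642 on the minus strand and Cdh13 at chr8:118283733-119324921 on the plus strand. Cdh26 is at chr2:178430531-178487366 and Cdh4 at chr2:179442431-179899373, both on the plus strand. Cdh6 lies at chr15:13028701-13173675 on the minus strand and Cdh10 at chr15:18818947-19014236 on the plus strand. None of the members shares exon bases with another gene on its own strand.

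Upstream sequences are shown for the FGF2-high Cdh26, for Cdh10, which was lower with FGF2 at d2.5, and for the scarce Cdh6, the 3 members found in the RefSeq promoter table. Each stretch is the 250 bases before the RefSeq start on the strand of the gene (GRCm38.p6), and none overlaps an annotated exon. Cdh26 is read from chr2:178430265-178430514, Cdh10 from chr15:18820079-18820328 and Cdh6 from chr15:13173676-13173925 on the minus strand. The RefSeq start of Cdh10 lies downstream of the gene start given above, chr15:18818947, so its stretch is inside that gene span. Capitals mark the only match on either strand to 3 motifs searched for, which do not overlap there. The motifs were TGANTCA for AP-1 factors, GGAATG for the TEAD partners of Yap and Taz, here found as its reverse complement, and CAGGTG for the E-box bound by Snail and Zeb repressors.
Cdh26: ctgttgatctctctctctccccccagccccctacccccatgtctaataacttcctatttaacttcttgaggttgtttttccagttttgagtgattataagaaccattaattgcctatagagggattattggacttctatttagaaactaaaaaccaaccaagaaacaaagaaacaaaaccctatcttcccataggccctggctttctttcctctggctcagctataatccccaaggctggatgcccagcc
Cdh10: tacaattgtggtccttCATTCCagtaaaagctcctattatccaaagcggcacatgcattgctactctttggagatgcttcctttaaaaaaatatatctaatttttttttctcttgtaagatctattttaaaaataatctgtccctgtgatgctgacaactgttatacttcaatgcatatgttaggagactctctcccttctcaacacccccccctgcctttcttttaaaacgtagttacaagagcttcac
Cdh6: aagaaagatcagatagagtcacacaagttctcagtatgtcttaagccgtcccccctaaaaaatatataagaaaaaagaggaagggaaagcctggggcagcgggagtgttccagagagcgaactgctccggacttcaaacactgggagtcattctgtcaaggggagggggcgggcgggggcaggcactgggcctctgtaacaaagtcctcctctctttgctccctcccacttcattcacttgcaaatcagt

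The marked TEAD letters of Cdh10 lie 234 to 229 bases before its RefSeq start. Among 32851 upstream windows of this length, 12.6% held the TEAD letters, 6.75% the AP-1 letters and 17.2% the E-box. A letter match is not a measured binding site. The Cdh26 window held 42.8% G and C, that of Cdh10 36.8% and that of Cdh6 51.2%, beside a median of 52.4% over all windows.

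Cdh2, Cdh11 and Cdh13 made up nearly all of the summed level of the 10 cadherins per kilobase in every group. Per kilobase of exon, Cdh2 was the most abundant at d2.5, with 42.8 ± 0.864 CPM per kb in Ctrl+vehicle, where Cdh11 reached 20.4 ± 1.07 and Cdh13 5.9 ± 0.765 CPM per kb. At d5 the Ctrl+vehicle order was Cdh11 at 71.5 ± 4.98, Cdh2 at 31.5 ± 0.601 and Cdh13 at 20.6 ± 0.251 CPM per kb. The neighbours in both orders did not overlap between libraries.

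Of the length-scaled sum of the 10 cadherins, Cdh2 took 61.2% ± 1.02 with vehicle, 75.9% ± 0.417 with FGF2 and 72.5% ± 0.96 with knockdown and FGF2 at d2.5. Its share at d5 was 25.2% ± 0.559 with vehicle, 39.2% ± 2.09 with FGF2 and 23.9% ± 1.4 with knockdown and FGF2. Cdh11 moved the other way at both days, from 29.2% ± 1.67 with vehicle to 7.83% ± 0.268 with FGF2 at d2.5 and from 57.2% ± 1.64 to 29.3% ± 1.87 at d5. Cdh13 took 8.45% ± 1.05, 12.4% ± 0.383 and 10.9% ± 0.47 in the 3 groups of d2.5, in the order vehicle, FGF2, and knockdown with FGF2. At d5 the same order of groups gave 16.5% ± 0.856, 29.3% ± 0.312 and 27.6% ± 0.703 for Cdh13. In d5 Ctrl+FGF2 the shares of Cdh11 and Cdh13 overlapped between libraries, so that their order there was not resolved.

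**Figure D1:**
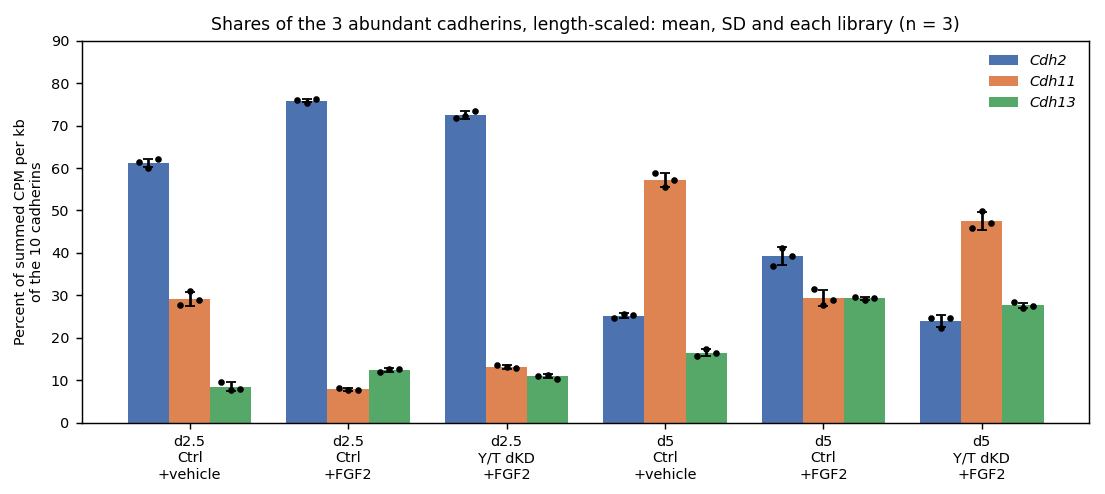
Percent of the summed CPM per kb of the 10 cadherins taken by Cdh2, Cdh11 and Cdh13 in each group (bars, mean with SD; points, the 3 libraries). Cdh2 is the tallest bar in all d2.5 groups and in d5 Ctrl+FGF2, and Cdh11 is the tallest in d5 Ctrl+vehicle and d5 Y/T dKD+FGF2.

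The length-scaled ratio of Cdh11 to Cdh2 put these shifts in 1 number. It was 0.477 with vehicle, 0.103 with FGF2 and 0.181 with knockdown and FGF2 at d2.5, and 2.27, 0.748 and 2 in the same order at d5. The 3 libraries of a group lay between 0.451 and 0.516 in d2.5 Ctrl+vehicle and between 0.0997 and 0.107 in d2.5 Ctrl+FGF2, and between 2.16 and 2.39 in d5 Ctrl+vehicle and 1.86 and 2.25 in d5 Y/T dKD+FGF2. These last groups overlapped, whereas d5 Ctrl+FGF2, from 0.674 to 0.847, stood below both. The ratio does not depend on the scaling between libraries, but its level depends on the exon lengths used.

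The first question was how FGF2 altered the cadherins at d2.5. The type II cadherins Cdh11 and Cdh10 fell most, Cdh2 and Cdh13 fell less, and the change of Cdh3 (P-cadherin) did not pass the test. Of the 5 members tested, 4 were called lower and 0 higher at an adjusted p under 0.05, where 34.1% of the 13677 genes tested were called lower and 33.5% higher. DESeq2 also called 4 lower. The median log2 fold change was -0.42 over the 5 members and 0.00 over all genes tested.

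Cdh11, the cadherin of mesenchyme and osteoblasts, was at 173, 192 and 180 CPM in the 3 Ctrl+vehicle libraries and at 31, 29 and 28.6 CPM in the Ctrl+FGF2 libraries. The lowest vehicle library was thus far above the highest FGF2 library. The difference was a log2 fold change of -2.63 (SE 0.05), or 6.2-fold lower, with an adjusted p of 3.3e-28 by edgeR's quasi-likelihood test with Benjamini-Hochberg adjustment, which gave all adjusted p-values below. In bulk RNA, fewer cells with a transcript and less transcript per cell cannot be told apart.

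Cdh10, a type II cadherin known mainly from the nervous system, was scarce, at 2.49, 3.61 and 2.01 CPM with vehicle and 0.563, 0.728 and 0.535 CPM with FGF2. Between 26 and 56 reads were behind each vehicle value and 8 to 10 behind each FGF2 value. The groups did not overlap, and the log2 fold change was -2.17 (SE 0.29, adjusted p = 8.3e-08).

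Cdh2, the main cadherin of neural crest mesenchyme, was at 348, 337 and 350 CPM with vehicle and at 263, 255 and 260 CPM with FGF2. All FGF2 libraries were lower, by a small and well resolved step of -0.42 (SE 0.03) on the log2 scale (adjusted p = 3.8e-13). Cdh13 (T-cadherin), which also binds adiponectin, was at 76.1, 60.2 and 62.6 CPM with vehicle and at 57.6, 59.8 and 59.8 CPM with FGF2. Vehicle replicate 1 stood above the other two, and the log2 fold change of -0.18 (SE 0.06, adjusted p = 0.0106) went to -0.07 with an adjusted p of 0.257 without it. Cdh3 was at 1.59, 1.55 and 1.62 CPM with vehicle and 2.04, 1.82 and 1.54 CPM with FGF2, and the groups overlapped. Its log2 fold change was 0.17 (95% interval from -0.29 to 0.63, adjusted p = 0.542).

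Cdh26 went the other way. It encodes a cadherin described in epithelia that binds integrins. Its counts were 1, 0 and 0 reads in the Ctrl+vehicle libraries of d2.5 and 46, 49 and 45 reads in the Ctrl+FGF2 libraries. The summed counts, 140 against 1, gave a ratio of 140 after library scaling, with an exact 95% counting interval of 24.7 to 5572 that covers counting error only. This contrast chose the gene and is not tested. The level with FGF2 was 3.27 ± 0.28 CPM, and per kilobase it was 1.09 ± 0.0931 CPM per kb, beside 32.2 ± 0.45 for Cdh2 in the same libraries. With FGF2, Cdh26 was thus the fourth of these 10 cadherins at d2.5, with 2.57% ± 0.233 of the length-scaled sum.

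Markers of epithelium were looked at beside Cdh26. The 12 epithelial markers summed to between 8.81 and 9.94 CPM with vehicle, between 24.4 and 25.4 CPM with FGF2 and between 16.2 and 17.6 CPM with knockdown and FGF2 at d2.5. In both groups given FGF2 most of this was the keratin Krt19, and with vehicle it was Krt19 and Krt14 (4.4 ± 0.569 CPM). Krt19 was at 4.69 ± 0.528 CPM with vehicle and 23.5 ± 1.14 CPM with FGF2 (log2 fold change 2.31, SE 0.10, adjusted p = 5e-19). Epcam, an adhesion molecule of epithelia, also rose, by 2.08 (SE 0.42, adjusted p = 6.4e-05), and Krt14 had 190 reads over the vehicle libraries and 6 over the FGF2 libraries. Of the 12 markers 6, 4 and 6 were at 0 counts in the 3 groups, and Krt5, Cldn3 and the splicing factor Esrp1 were at 0 in each of them. E-cadherin itself (Cdh1), the defining cadherin of epithelium, was not higher, with 20 reads summed over the vehicle libraries, 10 over the FGF2 libraries and 12 over the knockdown libraries. The part of other cells in the level of Cdh26 was not tested.

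**Figure D2:**
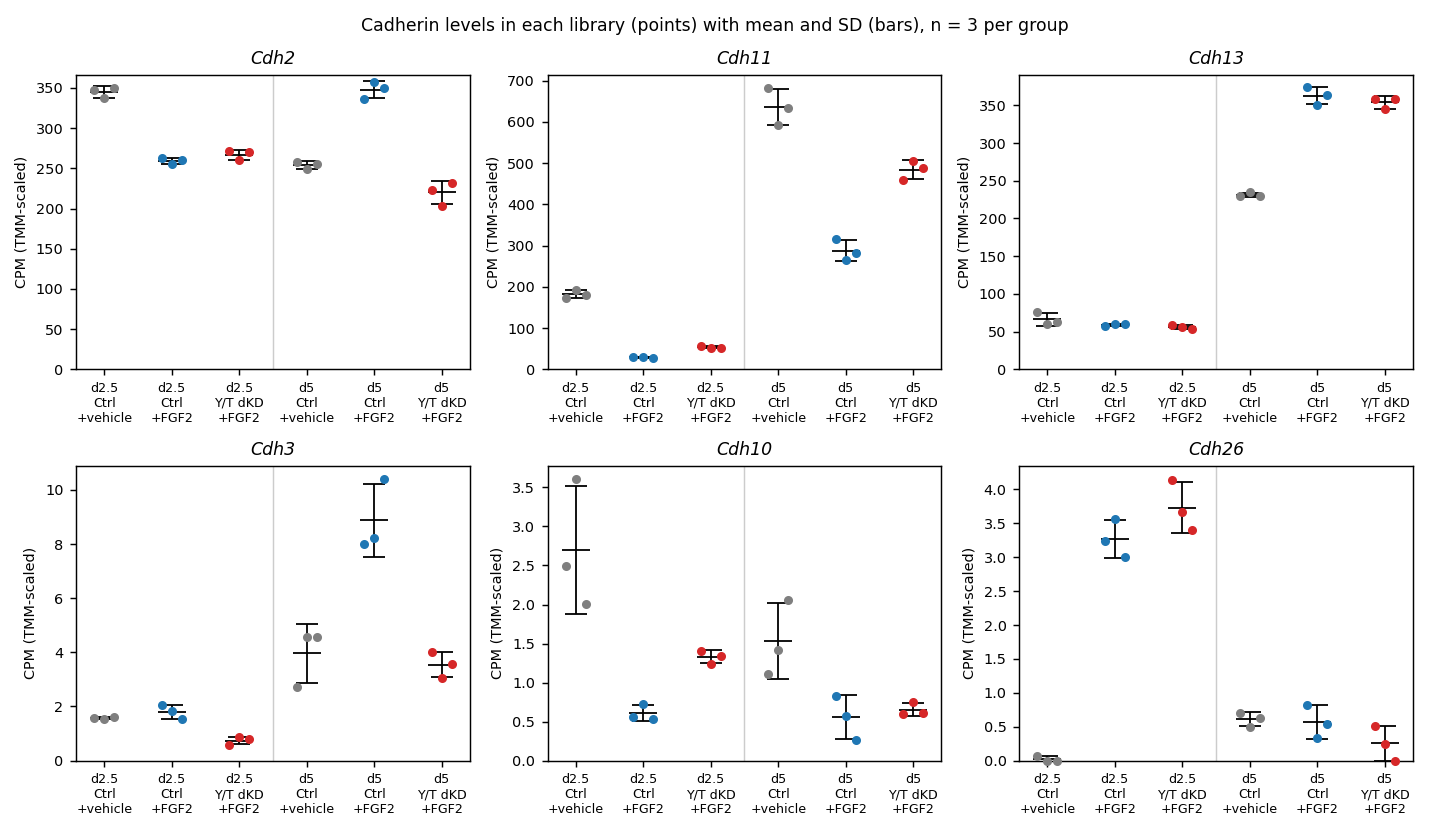
CPM of the 6 cadherins that passed the filter on low counts in at least 1 fit, by group (points, libraries; bars, mean with SD, n = 3; axes start at 0). Cdh11 is lower with FGF2 at both days, and Cdh26 is highest in the 2 FGF2 groups of d2.5, between 3.01 and 4.14 CPM.

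At d5 the response to FGF2 was split. Cdh2, Cdh13 and Cdh3 were higher with FGF2, and Cdh11 was lower as at d2.5. Of 4 members tested, 3 were called higher and 1 lower, where 23.5% of the 13304 genes tested were called higher and 23.7% lower. Their median log2 fold change was 0.56, beside 0.02 over all genes tested.

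Cdh2 was at 258, 249 and 255 CPM with vehicle and at 336, 358 and 350 CPM with FGF2 at d5. The groups lay apart, and the log2 fold change was 0.47 (SE 0.05, adjusted p = 1.9e-07). Cdh13 was at 230, 235 and 230 CPM with vehicle and at 374, 351 and 364 CPM with FGF2, a rise of 0.66 (SE 0.04, adjusted p = 2.2e-10). Cdh3 was at 2.71, 4.58 and 4.58 CPM with vehicle and at 8, 8.22 and 10.4 CPM with FGF2. Although its vehicle replicate 1 was lower than the other two, every FGF2 library was above every vehicle library (log2 fold change 1.16, SE 0.18, adjusted p = 3.8e-05).

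Cdh11 was at 682, 593 and 634 CPM with vehicle and at 315, 266 and 283 CPM with FGF2 at d5. All FGF2 libraries were below all vehicle libraries, by -1.13 (SE 0.06) on the log2 scale (adjusted p = 8.1e-11). Cdh10 was at 1.11, 1.42 and 2.06 CPM with vehicle and at 0.827, 0.57 and 0.269 CPM with FGF2, with 3 to 9 reads behind each FGF2 value. It passed the filter on low counts through the vehicle libraries alone, so no test or interval of it against vehicle is given at d5. Its summed reads were 19 with FGF2 and 51 with vehicle, a ratio of FGF2 over vehicle of 0.359. Cdh26 had 7, 6 and 7 reads in the vehicle libraries and 9, 4 and 6 in the FGF2 libraries. Its 20 and 19 reads gave a ratio of FGF2 over vehicle of 0.917 (exact 95% counting interval 0.463 to 1.81). The d2.5 values chose the gene, so the 2 days are not compared for it.

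The difference of the FGF2 effect between the days was fitted over all 18 libraries. It was called for 4 of 5 members, all in the direction of a higher value at d5, where 60.9% of the 14198 genes tested were called in either direction. The FGF2 effect on Cdh11 was higher at d5 than at d2.5 by 1.48 (SE 0.09, adjusted p = 4.4e-15) on the log2 scale, since the fall was smaller at d5. That on Cdh2 was higher by 0.87 (SE 0.06, adjusted p = 3.6e-14), a change of sign, and that on Cdh13 by 0.82 (SE 0.08, adjusted p = 1.9e-10). The FGF2 effect on Cdh3 was higher by 0.96 (SE 0.30, adjusted p = 0.00639). For Cdh10 the difference was 0.70 (95% interval from -0.33 to 1.73, adjusted p = 0.258).

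The second question was what the knockdown of Yap and Taz did in cells given FGF2. These comparisons use the same Ctrl+FGF2 libraries as the FGF2 effect, so the values of both are set side by side without a relation between them. At d2.5 the knockdown libraries had more Cdh11 and Cdh10 and less Cdh3. Of 5 members tested, 2 were called higher and 1 lower, where 10.8% of genes were called higher and 13.6% lower. The median log2 fold change of the members was 0.03, beside 0.00 over all genes.

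Cdh11 was at 56.5, 51.7 and 51.9 CPM in the d2.5 Y/T dKD+FGF2 libraries, all above the highest Ctrl+FGF2 library at 31 CPM. Its log2 fold change was 0.84 (SE 0.06, adjusted p = 9.6e-12), and the level of 53.4 ± 2.7 CPM was below the 182 ± 9.49 CPM of Ctrl+vehicle. Cdh3 was at 0.58, 0.856 and 0.79 CPM with knockdown, with only 7, 11 and 10 reads behind these values. They were below all Ctrl+FGF2 libraries (log2 fold change -1.27, SE 0.29, adjusted p = 0.00149). Cdh10 was at 1.41, 1.24 and 1.34 CPM with knockdown, with 16 or 17 reads in each library (log2 fold change 1.11, SE 0.35, adjusted p = 0.0183). The call for Cdh10 rested on few reads and was lost, with adjusted p-values up to 0.0739, when 1 of 4 libraries was left out, replicates 1 and 3 of Ctrl+FGF2 and of Y/T dKD+FGF2.

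Cdh2 and Cdh13 did not pass the test at d2.5. Cdh2 was at 271, 260 and 270 CPM with knockdown (log2 fold change 0.03, 95% interval from -0.03 to 0.10, adjusted p = 0.496). Cdh13 was at 58.4, 56.1 and 52.8 CPM (log2 fold change -0.09, 95% interval from -0.22 to 0.03, adjusted p = 0.311). Cdh26 had 50, 47 and 43 reads, or 4.14, 3.66 and 3.4 CPM, and overlapped the Ctrl+FGF2 libraries. Those libraries had served to choose the gene, so no test is given, and the 140 reads of each group gave a ratio of knockdown over Ctrl+FGF2 of 1.14 after library scaling (exact 95% counting interval 0.896 to 1.45).

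At d5 the knockdown libraries had more Cdh11 and less Cdh2 and Cdh3 than the Ctrl+FGF2 libraries. Of 5 members tested, 1 was called higher and 2 lower, where 15.6% of genes were called higher and 16.1% lower. The median log2 fold change of the members was -0.04, beside 0.00 over all genes. Cdh26 did not pass the filter on low counts at d5.

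Cdh11 was at 458, 504 and 489 CPM in d5 Y/T dKD+FGF2, above all Ctrl+FGF2 libraries (log2 fold change 0.74, SE 0.06, adjusted p = 2.6e-08) and below all Ctrl+vehicle libraries. Cdh2 was at 223, 203 and 232 CPM, below every Ctrl+FGF2 library (log2 fold change -0.67, SE 0.05, adjusted p = 4.4e-09). Cdh3 was at 4, 3.07 and 3.56 CPM, also below every Ctrl+FGF2 library (log2 fold change -1.33, SE 0.18, adjusted p = 2.1e-05). Between 35 and 47 reads a library were behind the Cdh3 values with knockdown and 87 to 116 behind those without.

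Cdh13 and Cdh10 did not pass the test at d5. Cdh13 was at 358, 345 and 359 CPM with knockdown, overlapping Ctrl+FGF2 (log2 fold change -0.04, 95% interval from -0.11 to 0.03, adjusted p = 0.41). Cdh10 was at 0.595, 0.748 and 0.611 CPM (log2 fold change 0.23, 95% interval from -0.65 to 1.12, adjusted p = 0.747). Cdh26 had 6, 3 and 0 reads with knockdown, and its 9 reads against 19 gave a ratio of 0.483 (exact 95% counting interval 0.193 to 1.12).

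**Figure D3:**
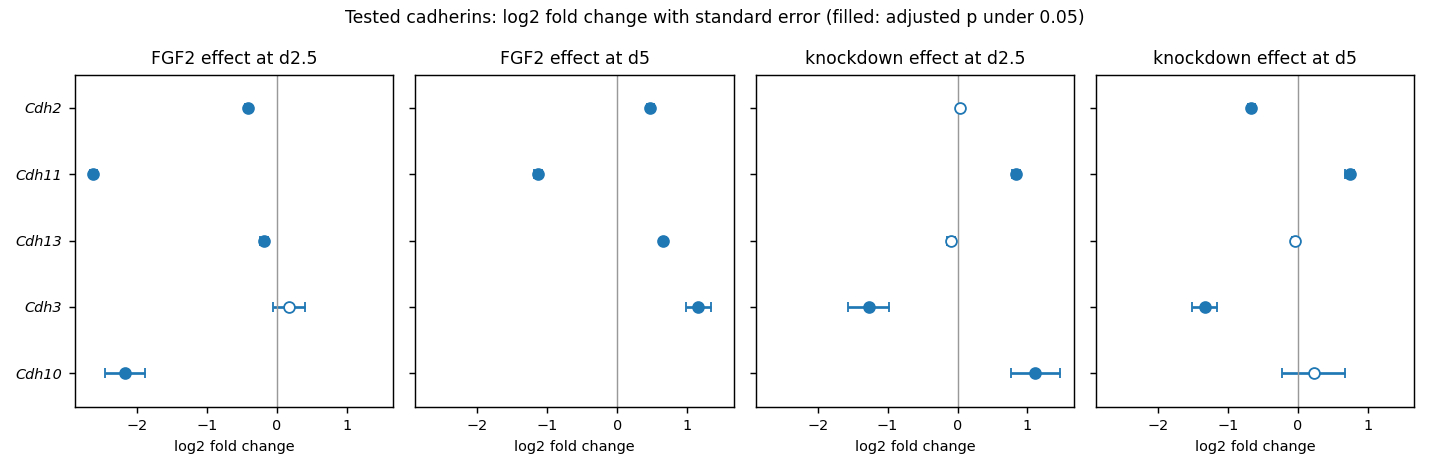
Log2 fold change with its standard error for the tested cadherins under FGF2 (Ctrl+FGF2 against Ctrl+vehicle) and under knockdown (Y/T dKD+FGF2 against Ctrl+FGF2) at each day, filled where the adjusted p was under 0.05. Cdh26 is left out, since FGF2 chose it, and Cdh10 under FGF2 at d5, since it passed the filter through vehicle alone. Cdh2 lies left of 0 under FGF2 at d2.5 (-0.42) and right of it at d5 (0.47).

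The difference of the knockdown effect between the days was called for 1 of 5 members, where 20.9% of genes were called. The knockdown effect on Cdh2 was lower at d5 by -0.71 (SE 0.06, adjusted p = 2.4e-10). For Cdh11 the difference was -0.10 (95% interval from -0.28 to 0.08), for Cdh3 -0.06 (from -0.90 to 0.77) and for Cdh13 0.05 (from -0.11 to 0.20). The interval was wide for Cdh10, at -0.88 (from -2.04 to 0.27).

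Knockdown with FGF2 was also compared with vehicle. At d2.5 all 5 members tested were lower with knockdown and FGF2 than with vehicle, where 35.7% of genes were called lower and 34.1% higher. The log2 fold changes were -1.79 (SE 0.05) for Cdh11, -1.10 (SE 0.30) for Cdh3, -1.06 (SE 0.25) for Cdh10, -0.39 (SE 0.03) for Cdh2 and -0.27 (SE 0.06) for Cdh13. At d5, 2 of 4 members were lower and 1 was higher, where 21.1% of genes were called lower and 20.7% higher. Cdh13 was higher by 0.62 (SE 0.04, adjusted p = 4.7e-10), and Cdh11 (-0.39, SE 0.06) and Cdh2 (-0.20, SE 0.05) were lower. Cdh3, which rose with FGF2 alone, was not called (-0.17, 95% interval from -0.59 to 0.25). Cdh10, not tested against vehicle at d5, had 22 reads with knockdown and FGF2 and 51 with vehicle (ratio 0.425).

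Levels at d5 were set beside those at d2.5, with the limit that the day is also the batch. Cdh11, Cdh13 and Cdh3 were higher at d5 in all 3 conditions. With vehicle 5 of 5 members were called, where 66.4% of genes were called in either direction. With FGF2 it was 4 of 5, where 80.0% were called, and with knockdown and FGF2 5 of 5, where 78.4% were called. The call for Cdh10 with vehicle was lost without replicate 2 of d2.5 Ctrl+vehicle (adjusted p = 0.0804). Cdh11 was higher at d5 by 1.81 (SE 0.05) with vehicle, 3.28 (SE 0.07) with FGF2 and 3.18 (SE 0.06) with knockdown and FGF2 on the log2 scale, and Cdh13 by 1.80 (SE 0.05), 2.62 (SE 0.05) and 2.67 (SE 0.06). Cdh2 was lower at d5 with vehicle (-0.44, SE 0.04) and with knockdown (-0.28, SE 0.04) and higher with FGF2 alone (0.42, SE 0.04).

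Cdh26 was at 3.73 ± 0.378 CPM at d2.5 and at 0.253 ± 0.255 CPM at d5 in Y/T dKD+FGF2, with 140 and 9 summed reads. No test is given, since the gene passed the filter through the d2.5 libraries with FGF2. In Ctrl+vehicle it had 1 read over the d2.5 libraries and 20 over the d5 libraries, and in Ctrl+FGF2 140 and 19. The summed level of the 10 cadherins per kilobase was 69.9 ± 0.361, 42.4 ± 0.43 and 45.7 ± 1.12 CPM per kb at d2.5 in vehicle, FGF2 and knockdown libraries, and 125 ± 5.13, 110 ± 2.43 and 114 ± 2.21 CPM per kb at d5. Every FGF2 library had a lower cadherin sum than every vehicle library of its day.

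Of the other members, Cdh1 and Cdh6 had few reads and Cdh4 and Cdh5 almost none. Cdh1 had 0 to 12 reads a library, 70 over all 18, and every interval of its FGF2 or knockdown ratio within a day included 1. Cdh6, a cadherin of the neural crest and kidney, had 0 to 7 reads a library. At d2.5 it had 17 reads with vehicle and 7 with FGF2 (ratio of FGF2 over vehicle 0.412, exact 95% counting interval 0.144 to 1.05), and at d5 9 with vehicle and 1 with FGF2 (ratio 0.107, interval 0.00245 to 0.774). Cdh6 had 6 reads at d2.5 and 1 at d5 with knockdown. Cdh4 (R-cadherin) had 1 read in the whole series, in a d5 knockdown library.

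Cdh5, the cadherin of endothelium, had 0 reads in all 18 libraries, which allows up to 3 reads over the series, or 0.0134 CPM. Of 12 endothelial markers, Tie1, Cldn5 and Sox17 were also at 0 in every group at d2.5 and d5. The summed level of the 12 markers, 99.5 to 159 CPM a library, was mostly Flt1, a Vegf receptor. With FGF2, 0 of 3 tested were higher and 1 lower at d2.5 (33.5% and 34.1% of all genes). At d5, 3 were higher and 0 lower (23.5% and 23.7%). With knockdown, 0 were higher and 0 lower at d2.5 (10.8% and 13.6%), and 0 higher and 1 lower at d5 (15.6% and 16.1%). Pecam1 fell by 1.55 (SE 0.24, adjusted p = 1.3e-06) with FGF2 at d2.5 and rose by 1.40 (SE 0.33, adjusted p = 0.00186) at d5.

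The genes whose pattern over the 18 libraries was most like that of a member were named as a description, since the libraries share groups, days and scaling. For Cdh26 they were Ccnd1 (Pearson r of log2(CPM + 1) 0.986), Tuba1b (0.981) and Gfm1 (0.970), and for Cdh11 Ptprk (0.995), Cyp1b1 (0.992) and Olfml3 (0.992), among 11958 genes. For Cdh2 they were Sfxn4 (0.938), Ppp2r3a (0.888) and Gsn (0.888). Those of Cdh6 reached only 0.811 (Foxred1), at a level of few reads.

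Cadherin tails are joined to actin by catenins, and 7 of the 10 catenin genes listed could be tested. Under FGF2, 3 were higher and 3 lower at d2.5, where the shares over all genes were 33.5% and 34.1%, and 5 were higher and 1 lower at d5 (23.5% and 23.7%). Under knockdown, 1 was higher and 2 lower at d2.5 (10.8% and 13.6% over all genes), and 1 was higher and 5 lower at d5 (15.6% and 16.1%). The median log2 fold changes of the list were -0.03, 0.19, -0.10 and -0.31 in this order, beside 0.00, 0.02, 0.00 and 0.00 over all genes. Jup (plakoglobin), a relative of β-catenin found in adherens junctions and desmosomes, was at 33.3 ± 5.39 CPM with vehicle and 78.5 ± 3.1 CPM with FGF2 at d5 (log2 fold change 1.24, SE 0.08, adjusted p = 1.1e-09). Arvcf, of the p120-catenin family, rose by 1.16 (SE 0.09, adjusted p = 1.2e-08) with FGF2 at d5 and fell by 0.78 (SE 0.11, adjusted p = 2.1e-07) at d2.5. Ctnnd1, which is p120-catenin itself, fell by 0.87 (SE 0.06, adjusted p = 1.1e-13) with FGF2 at d2.5, and Ctnnal1, a relative of α-catenin, rose by 1.34 (SE 0.04, adjusted p = 2.3e-22).

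Of the 9 junction linkers and nectins, 8 were tested at d2.5 and 7 at d5. Under FGF2, 2 were higher and 2 lower at each day, where 33.5% and 34.1% of all genes were called higher and lower at d2.5 and 23.5% and 23.7% at d5. Under knockdown 3 were higher and 1 lower at d2.5 (10.8% and 13.6% of all genes) and 2 higher and 0 lower at d5 (15.6% and 16.1%). Lima1, which links cadherin complexes to actin, fell by 1.05 (SE 0.03, adjusted p = 4.3e-22) and vinculin (Vcl) by 0.58 (SE 0.03, adjusted p = 3.7e-16) with FGF2 at d2.5. Nectin2 rose by 1.12 (SE 0.25, adjusted p = 0.00105) and Nectin3 fell by 0.57 (SE 0.07, adjusted p = 2e-06) with FGF2 at d5. The list medians were 0.23 and 0.04 under FGF2 and 0.10 and 0.05 under knockdown at d2.5 and d5.

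Other genes of the cadherin superfamily moved in both directions. Of 13 other Cdh genes, Cdh18 and Cdh24 were tested, and Cdh18 had 34 reads in d5 Ctrl+FGF2 and 2 in d5 Y/T dKD+FGF2 (log2 fold change -3.83, SE 0.70, adjusted p = 0.00036). None of the 9 desmosomal cadherins passed the filter on low counts. Of the 9 large Fat, Dachsous and Celsr cadherins, 5 were tested at d2.5, where 1 was higher and 3 lower with FGF2 (33.5% and 34.1% of all genes), and 3 at d5, where 2 were higher and 0 lower (23.5% and 23.7%). The list medians under FGF2 were -1.02 and 0.20. Fat4 and Dchs1, a receptor and ligand pair upstream of the Hippo pathway, fell with FGF2 at d2.5 by 2.39 (SE 0.10, adjusted p = 3.8e-19) and 1.57 (SE 0.05, adjusted p = 1.9e-23). Both were higher with FGF2 at d5, by 0.69 (SE 0.06, adjusted p = 1.4e-07) and 0.20 (SE 0.06, adjusted p = 0.00686). Under knockdown, 0 of the large cadherins were higher and 2 lower at d2.5 (10.8% and 13.6% of all genes), and 1 was higher and 1 lower at d5 (15.6% and 16.1%), with list medians of -0.18 and 0.14.

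Of 12 non-clustered protocadherins, 6 were tested. With FGF2, 1 was higher and 2 lower at d2.5 (33.5% and 34.1% of all genes) and 2 were higher and 1 lower at d5 (23.5% and 23.7%). With knockdown, 3 were higher and 1 lower at d2.5 (10.8% and 13.6%) and 1 was higher and 1 lower at d5 (15.6% and 16.1%). The medians of this list were -0.01 and 0.12 under FGF2 and 0.18 and -0.09 under knockdown. Pcdh20 showed the strongest rise, from 18.4 ± 0.744 CPM with vehicle to 163 ± 0.82 CPM with FGF2 at d2.5 (log2 fold change 3.14, SE 0.05, adjusted p = 1.8e-30). Its level with knockdown and FGF2 was 193 ± 8.37 CPM. Pcdh9 fell by 0.67 (SE 0.14, adjusted p = 0.0001) with FGF2 at d2.5.

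**Figure D4:**
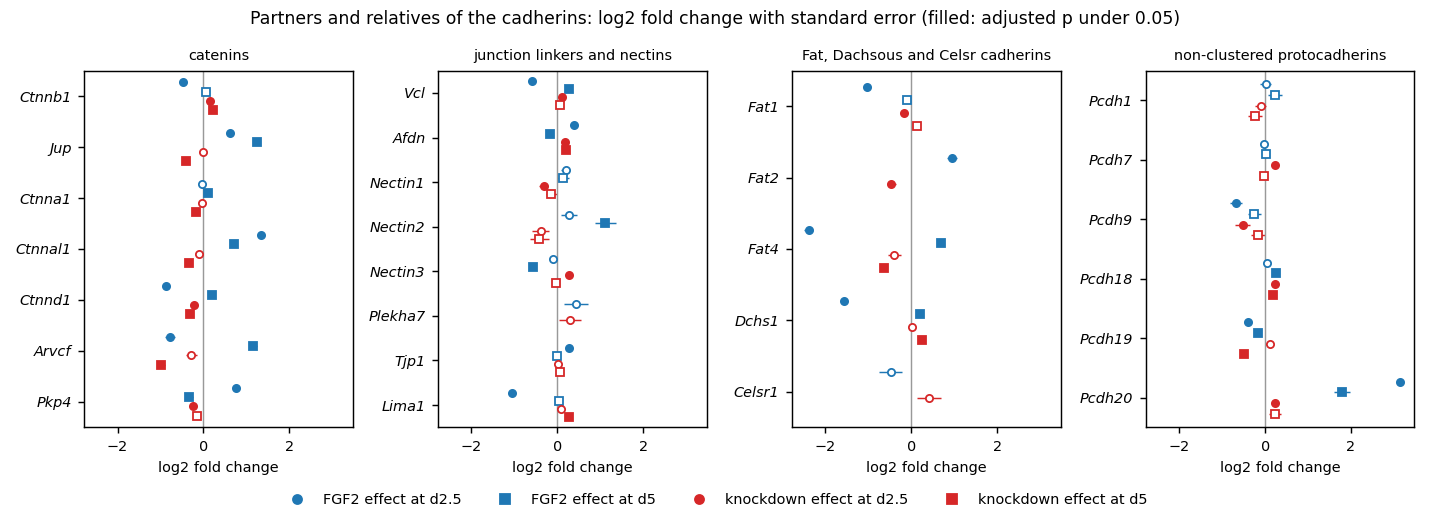
Log2 fold change with its standard error for tested catenins, junction linkers and nectins, large cadherins and protocadherins (blue, FGF2; red, knockdown; circles, d2.5; squares, d5; filled where the adjusted p was under 0.05). Pcdh20 lies farthest right under FGF2 at d2.5 (3.14) and Fat4 farthest left (-2.39).

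Of 16 known repressors and activators of Cdh1, 10 were tested. Under FGF2 4 were higher and 4 lower at each day, where 33.5% and 34.1% of all genes were higher and lower at d2.5 and 23.5% and 23.7% at d5. Under knockdown 2 were higher and 3 lower at d2.5 (10.8% and 13.6% of all genes) and 6 higher and 0 lower at d5 (15.6% and 16.1%). The list medians at d2.5 and d5 were 0.08 and 0.14 under FGF2 and -0.08 and 0.17 under knockdown. Snai1 fell by 1.60 (SE 0.07, adjusted p = 8.3e-19) and Twist2 rose by 1.11 (SE 0.10, adjusted p = 8.9e-12) with FGF2 at d2.5. Snai2 fell by 0.87 (SE 0.05, adjusted p = 5e-10) and Foxc2 rose by 0.86 (SE 0.14, adjusted p = 9.6e-05) with FGF2 at d5, where Snai1 was higher by 0.35 (SE 0.07, adjusted p = 0.0008). Grhl2, an activator of Cdh1, had 3 reads in all and the epithelial splicing factor Esrp1 had 0, and Cdh1 was near 0 throughout.

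Of 13 proteases that process or shed cadherins, 9 were tested at d2.5 and 10 at d5. With FGF2, 0 were higher and 8 lower at d2.5, where 33.5% and 34.1% of all genes were, with a list median of -0.44 beside 0.00 over all genes. At d5, 5 were higher and 2 lower (23.5% and 23.7% of all genes), with a median of 0.21 beside 0.02. Under knockdown 1 was higher and 2 lower at d2.5 (10.8% and 13.6%), and 1 was higher and 4 lower at d5 (15.6% and 16.1%), with medians of -0.01 and -0.15. Mmp14, a membrane metalloproteinase, fell by 1.22 (SE 0.03, adjusted p = 2.2e-24) with FGF2 at d2.5, and the proprotein convertase Pcsk6 by 1.09 (SE 0.22, adjusted p = 5.1e-05). Furin, which cleaves the precursors of classical cadherins, rose by 0.73 (SE 0.05, adjusted p = 3.1e-09) and Mmp9 by 1.69 (SE 0.33, adjusted p = 0.00045) with FGF2 at d5.

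The osteoblast markers were set beside Cdh11. Most but not all moved with it under FGF2 at both days, all did under knockdown at d5, and fewer did under knockdown at d2.5. Of the 8 markers, 7 were tested at d2.5 and 8 at d5. With FGF2, 1 was higher and 6 lower at d2.5 (33.5% and 34.1% over all genes) and 3 were higher and 5 lower at d5 (23.5% and 23.7%). With knockdown, 3 were higher and 1 lower at d2.5 (10.8% and 13.6%) and 8 were higher and 0 lower at d5 (15.6% and 16.1%). The early osteoblast enzyme gene Alpl fell by 9.61 (SE 0.17, adjusted p = 2.5e-29) and the transcription factor gene Sp7 by 2.82 (SE 0.10, adjusted p = 5.1e-21) with FGF2 at d2.5. Alpl had only 6 reads in d2.5 Ctrl+FGF2, so the size of its fall is less certain than its SE says. Spp1 (osteopontin) went against Cdh11 under FGF2, with a rise of 0.78 (SE 0.03, adjusted p = 7.3e-22) at d2.5 and of 0.46 (SE 0.06, adjusted p = 1.4e-05) at d5. Under knockdown Spp1 rose as Cdh11 did, by 0.33 (SE 0.03, adjusted p = 8.2e-11) at d2.5 and 0.61 (SE 0.06, adjusted p = 1e-06) at d5. Runx2 and Sp7 also rose with FGF2 at d5, by 0.40 (SE 0.05, adjusted p = 6.7e-06) and 0.32 (SE 0.09, adjusted p = 0.00948).

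The summed level of these markers in a library was 34721 to 35171 CPM with vehicle, 14954 to 15253 CPM with FGF2 and 16749 to 17076 CPM with knockdown and FGF2 at d2.5, and 70353 to 73164, 38921 to 42971 and 51587 to 54274 CPM in the same order at d5. The higher sum with knockdown than with FGF2 alone at d2.5 was mostly that of Spp1, at 8766 ± 269 against 6915 ± 51.7 CPM, where Col1a1 was at 2009 ± 74.3 against 2203 ± 58.6 CPM and Col1a2 at 5900 ± 89.2 against 5830 ± 38.2 CPM. Of the 10 neural crest and mesenchyme markers, 6 were lower and 1, Vim, was higher with FGF2 at d2.5 (34.1% and 33.5% of all genes). With FGF2 at d5, 6 were higher and 2 lower (23.5% and 23.7%). With knockdown 2 were higher and 2 lower at d2.5 (10.8% and 13.6%), and 3 were higher and 5 lower at d5 (15.6% and 16.1%). Their sum of 5549 to 5945 CPM with vehicle and 7109 to 7188 CPM with FGF2 at d2.5 was mostly Vim. The part of the differentiation state in the level of Cdh11 was not tested.

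Markers of further cell types were low. The 8 neuronal markers summed to 65.6 to 71.3 CPM in d2.5 Ctrl+vehicle and to 20.8 to 24.4 CPM in d2.5 Ctrl+FGF2, mostly Stmn2 and Tubb3, with Rbfox3 and Elavl3 at 0 in every group. With knockdown and FGF2 the sum was 20.3 to 21.4 CPM. Of 4 neuronal markers tested under FGF2 at d2.5, 2 were lower and 1, Snap25, was higher, where 34.1% and 33.5% of all genes were. The log2 fold change of Snap25 was 2.33 (SE 0.52, adjusted p = 0.00023). Under knockdown at d2.5, 1 of the 4 was higher and 1 lower (10.8% and 13.6% of all genes). Snap25 rose by 1.15 (SE 0.30, adjusted p = 0.00556) and Tubb3 fell by 0.81 (SE 0.12, adjusted p = 9e-06). The 7 glial markers summed to 13.4 CPM at most, the 6 muscle markers to 0.898 CPM and the 5 blood cell markers to 4.68 CPM. The part of neuronal transcripts in the level of Cdh10 was not tested.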

How the data were processed

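RNA-seq of polyadenylated RNA was analysed in 18 libraries, 3 for each of 3 groups at d2.5 and d5. The counts deposited by the authors are unscaled reads per gene, made per the labels with FastQC, STAR, Picard and featureCounts on mm10, with versions not given in the sources used here. Counts of the strand that held 96.0 to 96.6% of the stranded reads were used. Reads on no gene, 27.0 to 34.4% of a library, were left out. Of 55335 gene identifiers, 55154 were matched to GENCODE M21 (GRCm38), from which exon lengths and positions were taken, and upstream sequences are from RefSeq.

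For each day the 9 libraries were fitted with edgeR 4.0.16 in R 4.3.3 (TMM scaling, filterByExpr, quasi-likelihood test, no replicate block), and Benjamini-Hochberg adjustment ran over all genes tested with a threshold of 0.05. Cdh26 was kept out of all counts of members, as was Cdh10 in comparisons with vehicle at d5, where only the vehicle libraries carried it past the filter. Differences between days used 1 fit of the 18 libraries. The 95% intervals of log2 fold changes are 1.96 standard errors either side. The code was checked on simulated counts before use. The labels do not say that replicates were separate cultures, so p-values measure the spread between these samples, which may be technical. No pair of libraries of a group agreed within counting noise (chi-square per degree of freedom 1.25 to 6.41).

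All 10 members were to be named, with up to 4 genes of each list, those called with the largest change under FGF2 or knockdown, and 3 genes most like each of Cdh26, Cdh2, Cdh6 and Cdh11. The members and all gene lists were chosen with earlier results of these data known. Other genes named, such as Grhl2, Esrp1 and single markers, were named after their values were seen. Alternatives were DESeq2 1.42.0, other size factors, filters, unstranded counts, a replicate block, other sets of libraries in the fit and leaving out each library.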

Additional observations from a re-analysis of the deposited data

Results flagged for a closer look

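The FGF2 effect differed between d5 and d2.5 by the test of the difference itself for Cdh11 (1.48 on the log2 scale), Cdh3 (0.96), Cdh2 (0.87) and Cdh13 (0.82). The knockdown effect differed for Cdh2 (-0.71). These were picked out because the same contrast gave unlike values at 2 days, and the day is also the batch. No group had enough libraries for a test of single outlying libraries.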

How the results depend on the processing

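Of 406 values of single cadherins with an adjusted p, recomputed with other tools, size factors, filters, strands or sets of libraries, all 406 kept their direction and their side of the threshold. Fits leaving out 1 library are not among these and are given below. Filters also changed which cadherins were tested. For the difference of the FGF2 effect between days, other settings called between 3 and 5, instead of 4. Requiring at least 10 counts in every sample left fewer cadherins to test, so that 1 was called under knockdown at d2.5 instead of 3, and 3 instead of 5 for knockdown and FGF2 against vehicle at d2.5. The same filter left 3 calls for d5 against d2.5 with vehicle and 3 with knockdown and FGF2, instead of 5 each. DESeq2 also called 1 under knockdown at d2.5, since it gave no adjusted p for Cdh3 and Cdh10. Leaving out 1 library kept 38 of 41 calls in every fit, and the counts of members called lay between 3 and 4 for FGF2 at d2.5, 2 and 3 for knockdown at d2.5 and 4 and 5 for d5 against d2.5 with vehicle. Correlations of deviations between libraries of equal replicate number ran from -0.11 to 0.26. They were highest between d5 Ctrl+vehicle and d5 Ctrl+FGF2 (0.23, 0.26 and 0.02), where each of the 3 vehicle libraries was most like the FGF2 library of its number. The fit with a replicate block called the same number of members, 4 for FGF2 at d2.5 and 4 at d5. Counts of under about 20 reads limit what can be said of Cdh1, Cdh6 and, at d5, Cdh10 and Cdh26. The same limit holds at d2.5 for Cdh3 with knockdown and for Cdh10 in both groups given FGF2.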
